A study of Mus musculus with 30 samples.

Results

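The microRNAs (miRNAs) of the miR-23, miR-27 and miR-24 clusters were followed in mouse heart after particles had been placed in the airways. The 5 members were chosen by name, as the entries called mmu-miR-23a, mmu-miR-23b, mmu-miR-27a, mmu-miR-27b and mmu-miR-24 on the array. They are 5 of the 1079 mouse miRNAs that the array carries and 5 of the 306 that passed the filter on dim probes. No cut on a measured value entered the choice of names, but it was made with earlier results of these data known. All 5 members passed.

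Each array held RNA from 1 heart section containing both ventricles of a female C57BL/6 mouse bought at 5 to 6 weeks of age. Exposed animals were given a single dose of 162 µg Printex 90 into the trachea; Printex 90 is carbon black, nearly pure carbon sold as nanoparticles. Control animals were given the vehicle, saline with cell-free lavage fluid from mouse lung, which also carried the particles, so all groups received lavage fluid. Hearts were taken 1, 3 or 28 days later. Day 1 had 4 vehicle and 6 Printex 90 arrays, day 3 had 6 and 4, and day 28 had 4 and 5. In a whole section of tissue, fewer cells of a type and less RNA per cell cannot be told apart.

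miR-23, miR-27 and miR-24 are made from hairpins that lie close together and are cut from shared primary transcripts, once in each of a pair of clusters. The clusters arose by duplication, so miR-23a and miR-23b are close relatives, as are miR-27a and miR-27b, while the mature miR-24 of both clusters is the same molecule. In the heart and its vessels the family is known for work on endothelial sprouting, on cardiomyocyte growth and survival, and on fibroblast matrix genes.

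The mature sequences are shown because the seed, the stretch of bases 2 to 8 that a miRNA uses to pair with its targets, sorts the members into families. The sequences and positions are RefSeq's on GRCm38.p6, written 5′ to 3′, with the seed in capitals. A mature entry was matched for 4 of the 5 members, all but mmu-miR-23b.
mmu-miR-23a: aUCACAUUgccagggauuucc
mmu-miR-27a: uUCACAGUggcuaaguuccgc
mmu-miR-27b: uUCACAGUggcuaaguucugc
mmu-miR-24: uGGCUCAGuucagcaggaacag
mmu-miR-24-1*: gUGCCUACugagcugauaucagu
mmu-miR-24-2*: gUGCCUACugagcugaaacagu
mmu-miR-128: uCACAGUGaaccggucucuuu
The miR-27 relatives share their seed and differ by 1 substitution, C19U, counted from 1 at the 5′ end with the base of mmu-miR-27a first. How far a probe binds the relative of its own miRNA was not tested. The passenger strands of miR-24, which RefSeq names miR-24-1-5p and miR-24-2-5p, share bases 2 to 8. They differ at 5 of the 22 positions compared from the 5′ end. No gap was allowed for, so a base present in only 1 strand would shift the positions after it. By origin they are the entries on the array that tell the clusters' miR-24 hairpins apart. How far the probes of either strand bind the other was not tested. mmu-miR-128, from hairpins elsewhere in the genome, is shown because 6 bases of its seed overlap that of miR-27 when the sequences are shifted by 1 base. The miR-24 seed was shared by 4 others (mmu-miR-5124b, mmu-miR-6369, mmu-miR-6410 and mmu-miR-6413), none of which matched a name on the array.

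On chromosome 8 the hairpins Mir23a, Mir27a and Mir24-2 lie on the plus strand within 404 bp, at chr8:84208518-84208921. No other annotated gene covers them except the small hairpin Mir3074-2. The nearest annotated neighbours were Mir181c, 29557 bp before, and Zswim4, 2021 bp after. On chromosome 13 the hairpins Mir23b, Mir27b and Mir24-1 lie on the plus strand within 792 bp, at chr13:63300484-63301275, inside the span of the gene Aopep, an aminopeptidase gene. The small hairpin Mir3074-1 overlaps this cluster too. Its nearest annotated neighbours that do not overlap it were Gm16907, 3337 bp before, and Fancc, 59 bp after. Mature mmu-miR-23a lies at chr8:84208563-84208583, mmu-miR-27a at chr8:84208727-84208747 and mmu-miR-27b at chr13:63300760-63300780. Mature miR-24 is encoded at chr8:84208875-84208896 and at chr13:63301251-63301272, so its signal sums over both clusters.

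Signals are on a log2 scale after each array was divided by its own 75th percentile, taken over probes that every array detected. Across the 29 arrays, 18.4% to 27.5% of spots were well above background, 228 to 339 mouse miRNAs were detected, and the brightest and dimmest arrays differed 2.36-fold before scaling. The cardiomyocyte miRNAs miR-1a, miR-133a, miR-133b, miR-208a-3p and miR-499 were detected on all 29 arrays, as a heart section should show, and miR-208b on 18. Of 12 miRNAs that mark liver, brain, epithelium or pancreas, 11 were detected on 0 arrays, and the liver miRNA miR-122 on 26. A pair of arrays, Printex 90 day 1 replicates 4 and 5, stood apart for the members. Replicate 5 was among the dimmer arrays (238 miRNAs detected, 19.2% of spots above background), and replicate 4 had 279 detected miRNAs and 22.4% of spots. Results that rest on them are given with and without them.

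All 5 members were bright in the heart. Each was detected on 29 of 29 arrays with both of its probes, and none of their spots was saturated (0 spots). Among the 306 miRNAs tested, ranked from the brightest probe mean, mmu-miR-23a was at place 15, mmu-miR-24 at 16, mmu-miR-27a at 28, mmu-miR-23b at 30 and mmu-miR-27b at 41. These places describe array brightness and do not order the molecules, since different probes bind differently. Both probes of a miRNA gave closely matching values across arrays for mmu-miR-23a (r = 0.98), mmu-miR-23b (r = 0.98), mmu-miR-24 (r = 0.98) and mmu-miR-27a (r = 0.93). For mmu-miR-27b they did so less closely (r = 0.44), so its values are the least certain of the family.

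The opposite strands of the hairpins were mostly not seen. The passenger strands mmu-miR-23a*, mmu-miR-23b*, mmu-miR-27a* and mmu-miR-27b* were detected on 0 of 29 arrays, whereas mmu-miR-24-1* and mmu-miR-24-2* were detected on all 29. Of the 2 probes of mmu-miR-24-1*, 1 was detected on only 1 array and was not kept. All values of mmu-miR-24-1* therefore rest on 1 dim probe, with a mean log2 signal of 5.83.

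The spread between mice differed among the members. Within groups the SD of mmu-miR-24 was 0.09 (log2), the 10th lowest of the 306 miRNAs, and that of mmu-miR-27b was 0.09, the 11th lowest. The SD of mmu-miR-27b is that of the mean of 2 probes that matched less closely (r = 0.44). The within-group SD was 0.13 for mmu-miR-27a, 0.15 for mmu-miR-23a and 0.18 for mmu-miR-23b, against a median of 0.27 over all miRNAs tested. Among the 41 miRNAs at least as bright as mmu-miR-27b, members included, the median SD was 0.15. Of these 41, 3 had a lower SD than mmu-miR-24, 4 than mmu-miR-27b, 12 than mmu-miR-27a, 18 than mmu-miR-23a and 32 than mmu-miR-23b, so mmu-miR-23a was ordinary for its brightness and mmu-miR-23b above most. From the lowest to the highest mouse of the whole study, mmu-miR-24 spanned 1.28-fold, mmu-miR-27b 1.39-fold, mmu-miR-27a 1.42-fold, mmu-miR-23a 1.57-fold and mmu-miR-23b 1.89-fold.

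**Figure D1:**
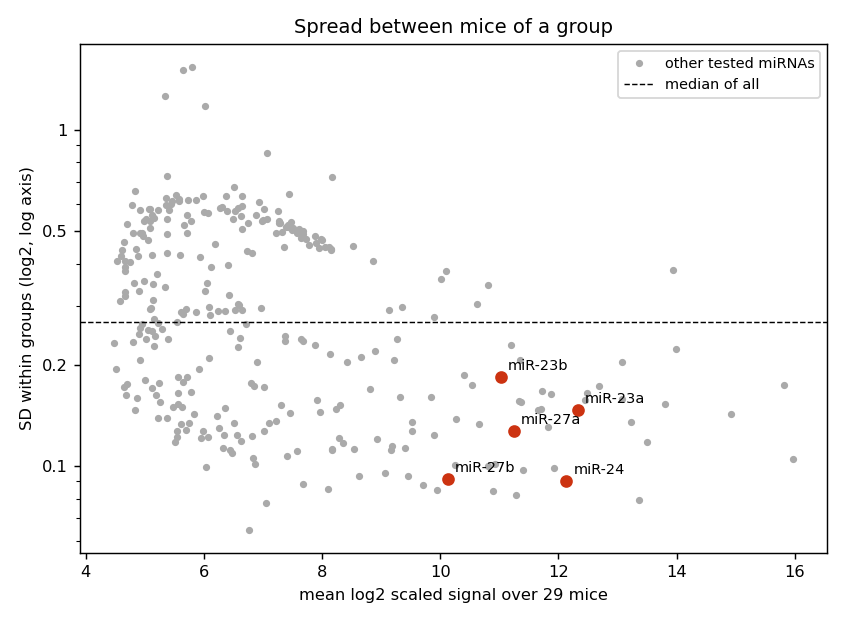
Spread of every tested miRNA between mice of a group. The x axis is the mean log2 scaled signal over 29 mice and the y axis the within-group SD on a log axis. Red points are the 5 members, grey points the other miRNAs, and the dashed line the median of 0.27. All members lie below the line.

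The first comparison asked whether Printex 90 in the airways was followed by a different level of these miRNAs in the heart. No member passed the test on any day, and the miRNAs as a whole gave the same count. In 1 limma fit of the 6 groups with Benjamini-Hochberg adjustment over 306 miRNAs, 0 of 5 members were called on day 1, day 3, day 28 or over the mean of the days. The share called over all miRNAs was 0% in each of these comparisons. At an unadjusted p below 0.05 there were 2, 1, 1 and 0 of the 306, none of them a member. The p-values measure the spread between mice, each of which gave its own RNA.

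For mmu-miR-23a, the first hairpin of the chromosome 8 cluster, the vehicle mice of day 1 lay at 12.31, 12.26, 12.32 and 12.41. The 6 Printex 90 mice of day 1 ran from 12.08 through a median of 12.27 to 12.73. The exposed range thus enclosed the vehicle range, through replicate 4 at the bottom and replicate 5 at the top, and the means differed by −0.01 ± 0.10 (log2, SE). On day 3, vehicle mice ran from 12.22 through a median of 12.28 to 12.45, and the Printex 90 mice lay at 12.30, 12.21, 12.38 and 12.52. On day 28 the vehicle mice lay at 12.26, 12.35, 12.27 and 12.58 and the Printex 90 mice at 12.31, 12.16, 12.30, 12.30 and 12.52. The groups overlapped on both later days, with differences of 0.04 ± 0.10 and −0.05 ± 0.10 and limma adjusted p-values of 0.998 and 0.949.

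mmu-miR-23b, its relative from chromosome 13, showed the widest spread of the 5. On day 1 the vehicle mice lay at 11.03, 10.94, 11.09 and 11.09, and the Printex 90 mice ran from 10.68 through a median of 10.97 to 11.60. Replicates 4 and 5 again set both ends, and the means differed by −0.01 ± 0.12. On day 3 vehicle mice ran from 10.90 through a median of 10.99 to 11.29, and the Printex 90 mice lay at 10.94, 10.90, 11.06 and 11.15. On day 28 the vehicle mice lay at 10.95, 11.02, 10.95 and 11.25 and the exposed mice at 11.08, 10.85, 10.91, 11.00 and 11.18. Differences were −0.03 ± 0.12 and −0.04 ± 0.12, with the groups overlapping on each day.

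mmu-miR-27a, whose known targets include regulators of lipid metabolism and of vessel growth, had the largest exposure differences of the 5 on days 3 and 28. On day 3 vehicle mice ran from 11.14 through a median of 11.29 to 11.35, and the Printex 90 mice lay at 11.20, 11.05, 11.16 and 11.22. All 4 exposed mice were below the vehicle mean of 11.25, but 3 of them lay inside the vehicle range, and the difference of −0.10 ± 0.09 had a limma adjusted p of 0.998. On day 28 the vehicle mice lay at 11.40, 11.26, 11.38 and 11.33 and the Printex 90 mice at 11.10, 11.55, 11.15, 11.11 and 11.31. The exposed group held both the lowest and the highest mouse, and its mean differed by −0.10 ± 0.09 (adjusted p 0.921 in limma). Leaving out the high mouse, replicate 2, moved the day 28 difference to −0.17, with an adjusted p of 0.829 and an unadjusted p of 0.0488 in limma. On day 1 the vehicle mice lay at 11.38, 11.18, 11.14 and 11.18, the exposed mice ran from 11.09 through a median of 11.19 to 11.48, and the difference was 0.02 ± 0.09.

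mmu-miR-27b, which differs from mmu-miR-27a at 1 base outside the seed, was tighter as the mean of its probes, which matched less closely. On day 1 the vehicle mice lay at 10.29, 10.15, 10.18 and 10.06 and the exposed mice ran from 9.84 through a median of 10.10 to 10.32. Its difference on that day, −0.08 ± 0.07, was the largest of the 5 members on day 1, with 5 of 6 exposed mice below the vehicle mean and an adjusted p of 0.749 in limma. On day 3 the vehicle mice ran from 10.03 through a median of 10.13 to 10.21, and the Printex 90 mice clustered at 10.09, 10.10, 10.13 and 10.11, all inside the vehicle range. On day 28 vehicle mice lay at 10.13, 10.21, 10.18 and 10.15 and exposed mice at 10.21, 10.10, 10.09, 10.08 and 10.17. Differences were −0.02 ± 0.07 on day 3 and −0.04 ± 0.07 on day 28.

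mmu-miR-24, the product of both clusters, was the steadiest member. On day 1 the vehicle mice lay at 12.21, 12.10, 12.11 and 12.12, and the exposed mice ran from 11.98 through a median of 12.10 to 12.34. On day 3 the vehicle mice ran from 12.03 through a median of 12.13 to 12.22, and the exposed mice lay at 12.06, 12.00, 12.11 and 12.20. On day 28 the vehicle mice lay at 12.17, 12.16, 12.17 and 12.26 and the exposed mice at 12.17, 12.21, 12.06, 12.08 and 12.27. Groups overlapped on all days, with differences of −0.01 ± 0.07, −0.03 ± 0.07 and −0.03 ± 0.07.

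**Figure D2:**
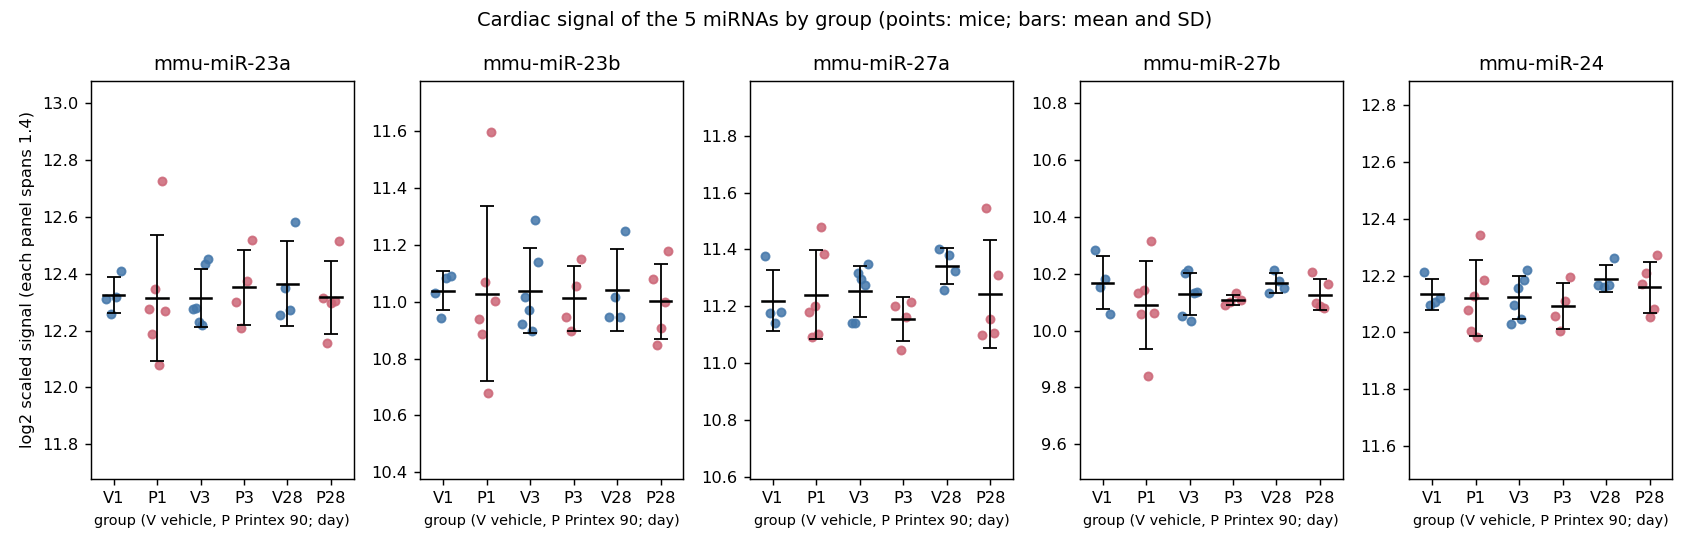
Log2 scaled signal (y axis) of the 5 members in each mouse, by group (x axis, V for vehicle and P for Printex 90, with the day). Blue points are vehicle mice, red points Printex 90 mice, and black bars the mean and SD. Every panel spans 1.4 log2 units. The vehicle and Printex 90 groups overlap on each day for all 5, and the widest group is Printex 90 on day 1 for mmu-miR-23b, from 10.68 to 11.60.

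The intervals show what size of difference the arrays leave possible. For mmu-miR-24 the 95% interval of the ratio of Printex 90 to vehicle was 0.900 to 1.09 on day 1, 0.889 to 1.08 on day 3 and 0.886 to 1.08 on day 28. For mmu-miR-23b, the most variable member, it was 0.838 to 1.18 on day 1, 0.827 to 1.16 on day 3 and 0.816 to 1.16 on day 28. Over the mean of the days the intervals narrowed, to 0.929 to 1.04 for mmu-miR-24, 0.915 to 1.02 for mmu-miR-27b, 0.893 to 1.03 for mmu-miR-27a, 0.917 to 1.08 for mmu-miR-23a and 0.890 to 1.09 for mmu-miR-23b. All 5 mean differences were below 0, from −0.06 to −0.01 with a median of −0.03, where the median of the 306 miRNAs was −0.00. With arrays scaled on their total gene signal, 3 of the 5 turned above 0, and on the 75th percentile over all probes all 5 members were above 0 on day 1 (median 0.17, where all miRNAs had a median of 0.11). Unscaled, all 5 were below 0 on day 1 and above 0 on day 3, where all miRNAs had medians of −0.24 and 0.13. No direction is therefore given for the family.

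**Figure D3:**
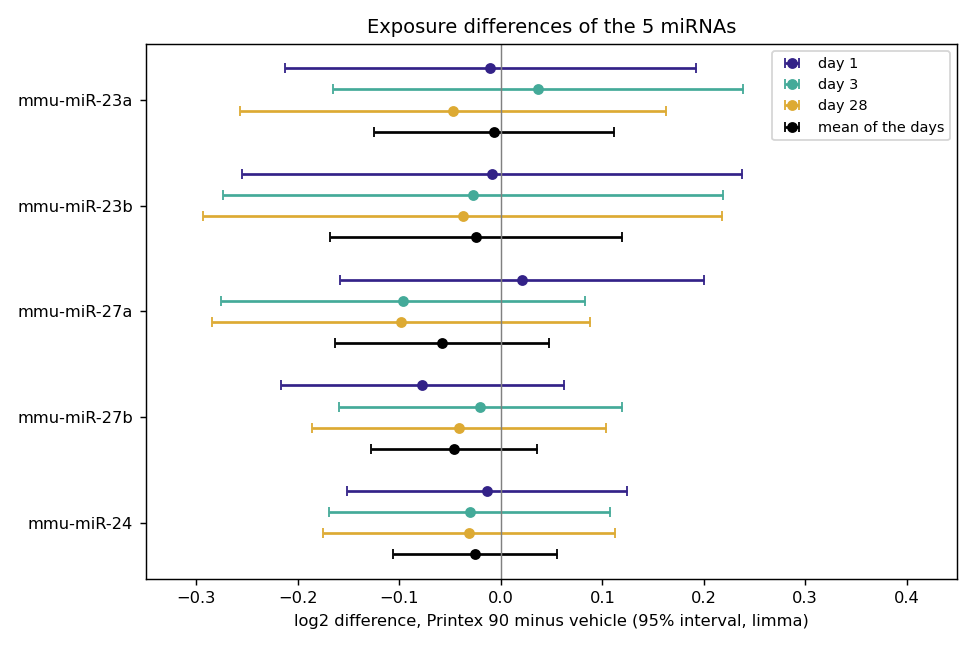
Difference of Printex 90 from vehicle (x axis, log2) for the 5 members (y axis) on each day and over the mean of the days. Points are limma estimates and bars their 95% intervals. Every interval includes 0, and the estimates lie between −0.10 and 0.04.

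A slide carries several arrays, and each slide held up to 2 mice of a group in a comparison. Within slides the exposure differences of the members ran from −0.30 to 0.25 and changed sign between slides. On slide 2, which held the high replicate 5, all 5 members were higher in the day 1 Printex 90 mice, by 0.09 to 0.25, while on slides 3 and 4 all 5 were lower, by −0.20 to −0.03. With slide as a block in limma, 0 members were called.

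The second comparison asked whether the response to Printex 90 differed between days. The change of the exposure difference from day 1 to day 3, day 1 to day 28 and day 3 to day 28 was called for 0 of 5 members and for 0% of all miRNAs (2, 3 and 1 of 306 at an unadjusted p below 0.05, limma). The largest were those of mmu-miR-27a, −0.12 ± 0.12 from day 1 to day 3 and −0.12 ± 0.13 from day 1 to day 28. Their adjusted p-values were 0.735 and 0.792, and the other members stayed between −0.08 and 0.06.

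The third comparison followed the days within each treatment. Mice taken on later days were also older, so age and time since the dose cannot be told apart. No member passed between any days in vehicle or in Printex 90 mice. In vehicle mice the share of all miRNAs called was 0% from day 1 to day 3, 1.96% from day 1 to day 28 and 0.327% from day 3 to day 28. In Printex 90 mice it was 0% from day 1 to day 3, 0.654% from day 1 to day 28 and 0.327% from day 3 to day 28. The miRNAs that passed were miR-208b, the intronic miRNA of a slow myosin gene, in all 4 comparisons with day 28, and miR-29a, miR-29b, miR-29c, miR-29c* and miR-31 in vehicle mice and miR-301a in Printex 90 mice from day 1 to day 28. They were picked out after their values were seen.

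Among the members, the largest difference between days was that of mmu-miR-27a in vehicle mice, 0.12 ± 0.10 higher on day 28 than on day 1 in 4 of 4 mice (adjusted p 0.747, limma). It lay at 11.22 ± 0.11 (SD, n = 4) on day 1, 11.25 ± 0.09 (n = 6) on day 3 and 11.34 ± 0.06 (n = 4) on day 28. In Printex 90 mice it lay at 11.24 ± 0.16 (n = 6), 11.16 ± 0.08 (n = 4) and 11.24 ± 0.19 (n = 5). mmu-miR-24 was 0.07 ± 0.07 higher on day 28 than on day 3 both in vehicle and in Printex 90 mice, with limma adjusted p-values of 0.900 and 0.712, where the median of all miRNAs was 0.10 higher in both. Between day 1 and day 3, the members differed by −0.04 to 0.03 in vehicle mice and by −0.08 to 0.04 in Printex 90 mice. Over the 6 groups the means ran for mmu-miR-23a from 12.31 to 12.37, for mmu-miR-23b from 11.00 to 11.04, for mmu-miR-27a from 11.16 to 11.34, for mmu-miR-27b from 10.09 to 10.17 and for mmu-miR-24 from 12.09 to 12.19. The range of means was below the within-group SD for mmu-miR-23a, mmu-miR-23b and mmu-miR-27b, and above it for mmu-miR-27a and mmu-miR-24. No 2 groups compared differed past the threshold.

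The passenger strands of miR-24 and mmu-miR-128 gave the same counts. Of the 6 passenger strands 2 could be tested, and mmu-miR-24-1* differed between Printex 90 and vehicle by −0.02 ± 0.10, −0.02 ± 0.10 and −0.05 ± 0.10 on days 1, 3 and 28. mmu-miR-24-2*, from chromosome 8, differed by 0.01 ± 0.09, 0.07 ± 0.09 and −0.07 ± 0.10. For mmu-miR-128, a neuronal and muscle miRNA, the values were −0.04 ± 0.09, 0.03 ± 0.09 and −0.05 ± 0.09. None of them passed (0 of 3, limma adjusted p from 0.920 to 0.998).

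Whereas the groups did not separate, the members moved together from mouse to mouse. Each mouse's deviation from its group mean was set against that of the other members, over 29 mice and 10 pairs, with two-sided permutation tests (100000 resamples) and Benjamini-Hochberg adjustment. The deviations were positively correlated in 7 of the 10 pairs, with r of at least 0.54. The same 7 passed with Spearman's rho. Of all 46665 pairs among the 306 miRNAs, 18.7% had an r at least as high, and so did 16.8% of the 820 pairs among the 41 brightest, a description that was added after seeing the data. Correlations of this size are thus not particular to the members.

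The closest pair was mmu-miR-23a and mmu-miR-23b, relatives from different chromosomes (r = 0.95, adjusted permutation p 2.5e-05, rho = 0.95). The r was 0.92 without the 2 mice farthest from the median, 0.92 without Printex 90 day 1 replicates 4 and 5, 0.91 with slide means also taken off, and 0.69 to 0.99 within the 4 slides. The log2 ratio of mmu-miR-23a to mmu-miR-23b had a within-group SD of 0.06, less than the 0.15 and 0.18 of its parts. Centred on its mean over the study, the ratio lay between −0.03 and 0.04 in the 6 group means. How far the probes of either miR-23 bind the other was not tested, and no mature sequence of mmu-miR-23b was matched. Shared levels and shared binding therefore cannot be told apart for this pair. The raw permutation p of 1e-05 is the smallest that the resamples can give.

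mmu-miR-27a and mmu-miR-27b, which share all but 1 base, gave r = 0.36 (rho = 0.25, adjusted permutation p 0.0642). The pair did not pass here, but it passed when scaled on total gene signal (r = 0.41, adjusted permutation p 0.0321), the brightest probe (0.48, 0.0103), the series table (0.73, 1.11e-05) and no scaling (0.94, 1e-05). In the series table and unscaled all 10 member pairs passed, so passing there does not mark this pair. The log2 ratio of mmu-miR-27a to mmu-miR-27b had a within-group SD of 0.13.

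Among neighbours within a cluster, mmu-miR-23a and mmu-miR-27a on chromosome 8 gave r = 0.31 (rho = 0.21, adjusted permutation p 0.0970). This r depended on the scaling, from −0.06 with total gene signal to 0.76 in the series table and 0.87 unscaled (adjusted permutation p 0.76, 1.11e-05 and 1e-05), and was 0.57 without Printex 90 day 28 replicate 2, which passed. mmu-miR-23b and mmu-miR-27b on chromosome 13 gave r = 0.66 (rho = 0.49, adjusted permutation p 0.000767). With quantile normalization this r was 0.15 (adjusted permutation p 0.454) and no longer passed. Differences between these correlations were not tested.

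mmu-miR-24, encoded in both clusters, correlated with all 4 other members. Its r was 0.82 with mmu-miR-23b (rho = 0.73), 0.78 with mmu-miR-23a (rho = 0.65), 0.74 with mmu-miR-27a (rho = 0.77) and 0.66 with mmu-miR-27b (rho = 0.53), with adjusted permutation p-values of at most 0.00034. All 4 also passed with the brightest probe, quantile normalization or scaling on total gene signal. Their size depended on the scaling. On total gene signal the r was 0.43 with mmu-miR-23b, 0.48 with mmu-miR-23a, 0.69 with mmu-miR-27a and 0.88 with mmu-miR-27b. These 4 pairs passed unscaled and in the series table too, but there all 10 member pairs did. Unscaled values keep the differences in brightness between arrays. Within slides, the r of mmu-miR-24 with mmu-miR-27a stayed between 0.51 and 0.86 and that with mmu-miR-27b between 0.52 and 0.97. With mmu-miR-23a it ran from 0.56 to 0.90 on slides 1, 2 and 3 and was −0.38 on slide 4, and with mmu-miR-23b it ran from 0.06 to 0.88.

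**Figure D4:**
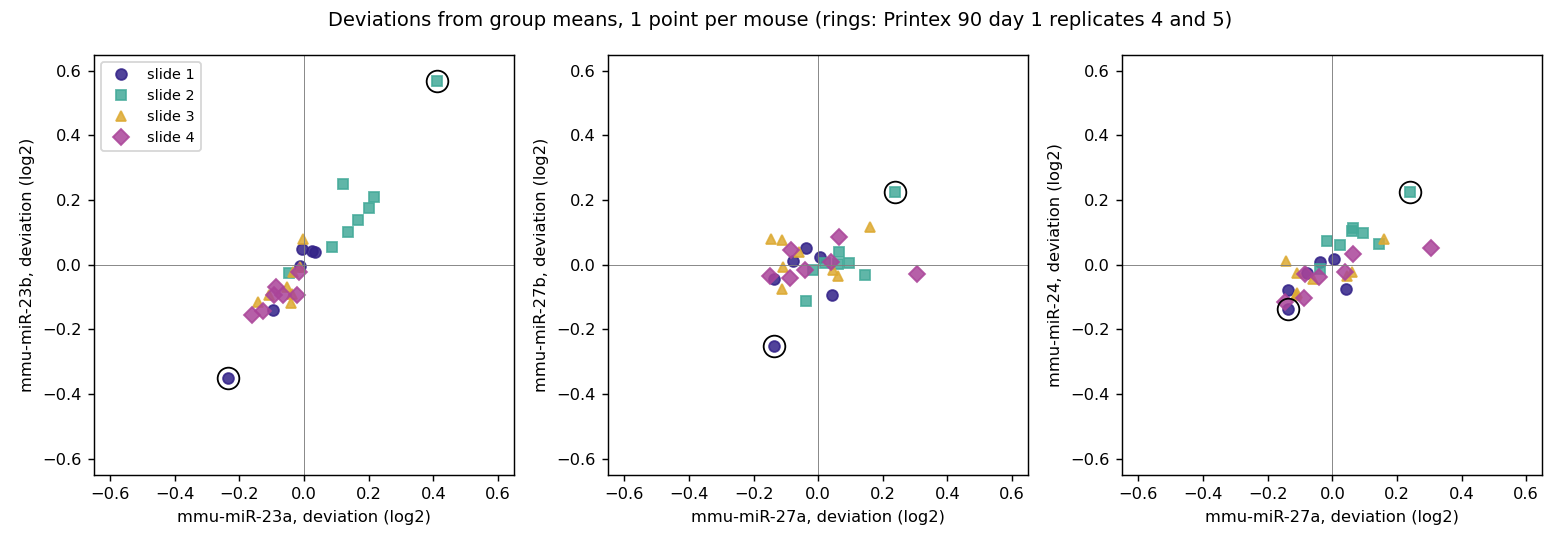
Deviation of each mouse from its group mean (log2) for mmu-miR-23a against mmu-miR-23b, mmu-miR-27a against mmu-miR-27b and mmu-miR-27a against mmu-miR-24. Marker shape and colour give the slide, and rings mark Printex 90 day 1 replicates 4 and 5. The miR-23 pair lies along a line (r = 0.95), the miR-27 pair lies less closely along one (r = 0.36), and the slide 2 mice lie mostly to the upper right for mmu-miR-23a and mmu-miR-23b.

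The 2 arrays that stood apart carried some of these relations. Replicate 5 lay above its group mean by 0.41 for mmu-miR-23a, 0.57 for mmu-miR-23b, 0.24 for mmu-miR-27a, 0.23 for mmu-miR-27b and 0.22 for mmu-miR-24. Replicate 4 lay below by −0.23, −0.35, −0.14, −0.25 and −0.14 in the same order. Without them 4 of the 10 pairs passed: mmu-miR-23a with mmu-miR-23b, and mmu-miR-24 with mmu-miR-23a (r = 0.63), mmu-miR-23b (r = 0.69) and mmu-miR-27a (r = 0.65). The r of mmu-miR-27b fell to 0.11 with mmu-miR-23a, 0.26 with mmu-miR-23b and 0.42 with mmu-miR-24, with adjusted permutation p-values of 0.839, 0.319 and 0.0537. On slides 3 and 4, which held neither mouse, mmu-miR-27b gave r = 0.77 and 0.71 with mmu-miR-23b, 0.80 and 0.52 with mmu-miR-24, and 0.56 and 0.25 with mmu-miR-23a. Leaving out the 2 mice farthest from the median of the x axis gave a like picture for mmu-miR-23b with mmu-miR-27b (r = 0.25), mmu-miR-23a with mmu-miR-27b (r = 0.38) and mmu-miR-27b with mmu-miR-24 (r = 0.42). With the brightest probe of each miRNA, however, mmu-miR-27b correlated with mmu-miR-23a at r = 0.83, with mmu-miR-23b at 0.91 and with mmu-miR-24 at 0.89. With slide means taken off and all mice kept, these were 0.79, 0.89 and 0.83. In the other direction, without Printex 90 day 28 replicate 2, the high mouse of mmu-miR-27a, all 10 pairs passed.

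These deviations differed between slides, and those of mmu-miR-27a also went with the percentage of spots above background. On slide 2, 7 of 8 mice were above their group mean for mmu-miR-23a, mmu-miR-23b and mmu-miR-24, by 0.16, 0.18 and 0.09 on average, and on slide 4, 0 of 7 were above it for mmu-miR-23a and mmu-miR-23b. With slide means taken off as well, 7 of 10 pairs passed. Over 10 relations of the 5 members with 2 measures of array brightness, 3 passed. Among these measures, the 75th percentile before scaling is also the divisor of every member's signal. Its negative r with a member can follow from the division alone, so its tests cannot show a relation with array brightness. The log2 75th percentile before scaling correlated with mmu-miR-27a at r = −0.62 (rho = −0.66, adjusted permutation p 0.003, −0.65 without the 2 farthest mice, −0.76 to −0.45 within slides) and with mmu-miR-24 at r = −0.50 (rho = −0.58, adjusted permutation p 0.019, −0.44 without the 2 farthest mice, −0.61 to 0.06 within slides). The percentage of spots above background correlated with mmu-miR-27a at r = −0.57 (rho = −0.56, adjusted permutation p 0.0057, −0.54 without the 2 farthest mice, −0.86 to −0.37 within slides). The part of array brightness in the correlations between members was not tested.

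Of the passenger strands of miR-24, each comes from 1 cluster, unlike the mature miR-24. mmu-miR-24-1*, from chromosome 13, correlated with mmu-miR-24 (r = 0.86, rho = 0.82), mmu-miR-23b (r = 0.86, rho = 0.76), mmu-miR-23a (r = 0.84, rho = 0.71), mmu-miR-27b (r = 0.62, rho = 0.36) and mmu-miR-27a (r = 0.56, rho = 0.57). All 5 passed by Pearson's r in a family of 11 relations, with adjusted permutation p-values of at most 0.00367. By rho, the relation with mmu-miR-27b was not below 0.05 even unadjusted (raw permutation p 0.0583). Without the 2 farthest mice, the r with mmu-miR-27b was 0.20 and that with mmu-miR-27a 0.54. Within slides 1 and 2, mmu-miR-24-1* gave r = 0.91 and 0.82 with mmu-miR-23a and 0.93 and 0.77 with mmu-miR-23b, but within slides 3 and 4 it gave −0.07 and 0.01 with mmu-miR-23a and 0.31 and 0.37 with mmu-miR-23b. With mmu-miR-24 it ran from 0.61 to 0.87 within slides. mmu-miR-24-2*, from chromosome 8, passed with 1 of the 5, mmu-miR-27b (r = 0.65, rho = 0.59, adjusted permutation p 0.000963), which is encoded on chromosome 13. With its own cluster neighbours mmu-miR-23a and mmu-miR-27a it gave r = 0.22 and 0.21 over all mice, and 0.44 to 0.87 and −0.03 to 0.99 within slides. For these neighbours rho was −0.06 and −0.01, and without the 2 farthest mice r was −0.18 and −0.08, so the direction turned. The passenger strands themselves gave r = 0.31 (rho = −0.14, adjusted permutation p 0.159), and r = −0.28 without the 2 farthest mice. mmu-miR-128 correlated with no member past the threshold over 5 relations (r from −0.34 to 0.03, smallest raw permutation p 0.0689). Without the 2 farthest mice these were 0.46 with mmu-miR-23a and mmu-miR-23b, 0.33 with mmu-miR-27a, 0.03 with mmu-miR-27b and 0.27 with mmu-miR-24, so the direction turned for 4 of them.

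**Figure D5:**
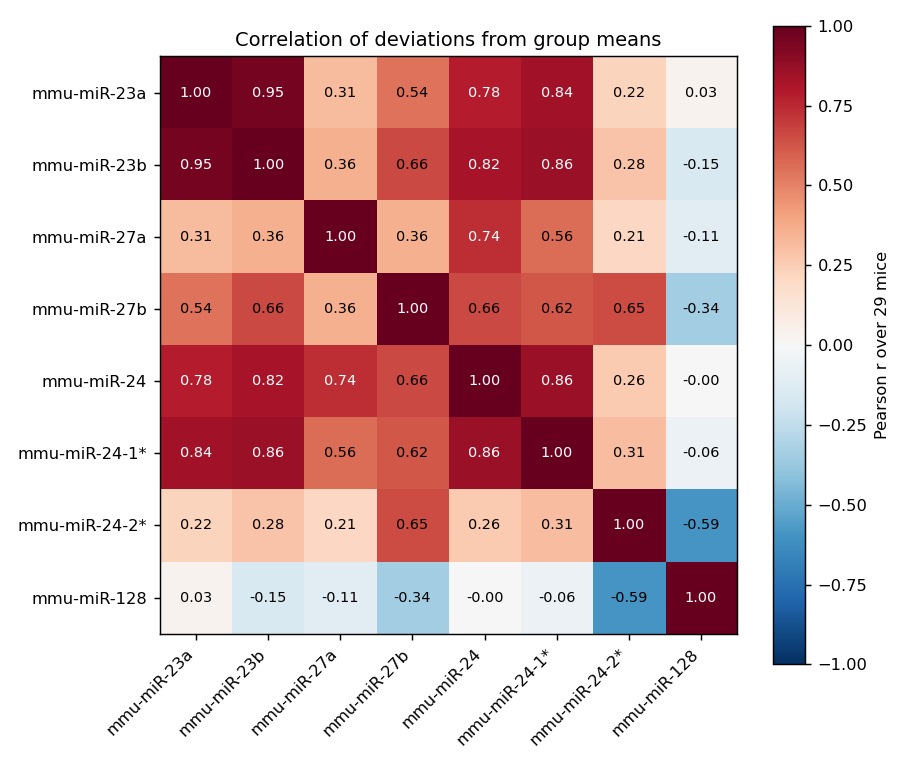
Pearson r of deviations from group means over 29 mice between the 5 members, the passenger strands of miR-24 and mmu-miR-128 (rows and columns). Red is positive and blue negative. The block of mmu-miR-23a, mmu-miR-23b, mmu-miR-24 and mmu-miR-24-1* runs from 0.78 to 0.95, and the row of mmu-miR-128 lies at or below 0.03.

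Among the 301 other tested miRNAs, the 3 whose deviations were most like each member's overlapped between members. Each r here is a description over 29 mice. For mmu-miR-23a they were mmu-miR-193 (r = 0.88), mmu-miR-28 (0.84) and mmu-miR-24-1* (0.84), and for mmu-miR-23b mmu-miR-193 (0.90), mmu-miR-365 (0.89) and mmu-miR-193b (0.87). Within slides those of mmu-miR-23a ran, in that order, from 0.25 to 0.96, −0.03 to 0.94 and −0.07 to 0.91. Those of mmu-miR-23b ran from 0.21 to 0.97, 0.65 to 0.96 and 0.35 to 0.86. For mmu-miR-24 they were mmu-miR-24-1* (0.86), mmu-miR-28 (0.84) and mmu-miR-331-3p (0.81), with 0.61 to 0.87, 0.68 to 0.91 and 0.40 to 0.92 within slides. For mmu-miR-27a they were mmu-miR-331-3p (0.76), mmu-miR-3473b (0.64) and mmu-miR-484 (0.59), and for mmu-miR-27b mmu-miR-24-2* (0.65), mmu-miR-365 (0.65) and mmu-miR-143 (0.63). Within slides those of mmu-miR-27a ran from 0.70 to 0.92, −0.29 to 0.78 and 0.56 to 0.89. Those of mmu-miR-27b ran from 0.50 to 0.93, 0.22 to 0.90 and 0.13 to 0.85. The median r over all 301 lay between −0.05 and 0.16 for the 5 members.

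Levels of some cell type markers moved with some members. Against the mean deviation of 6 marker lists, 12 of 30 relations passed by Pearson's r (adjusted permutation p). Every r here is with the mean of a list, and the miRNAs of a list were not tested singly. The smooth muscle list had 2 of 4 members tested, with miR-143* and miR-145* at 0 arrays, and its mean log2 level ran from 8.06 to 9.71 in the Printex 90 mice of day 1, from 8.12 to 8.84 in the vehicle mice of day 3 and between 8.04 and 8.40 in the other groups. The fibroblast list had 4 of 5 tested, with miR-214* at 0 arrays, and ran from 7.87 to 8.59 in the Printex 90 mice of day 1, from 7.91 to 8.90 in the vehicle mice of day 3, from 7.94 to 8.70 in those of day 28 and between 7.91 and 8.39 in the other groups. miR-143 and miR-145 correlated with mmu-miR-23b at r = 0.80 (rho = 0.57, adjusted permutation p 0.00045), mmu-miR-23a at 0.69 (rho = 0.49, 0.00205), mmu-miR-27b at 0.62 (rho = 0.43, 0.00798) and mmu-miR-24 at 0.58 (rho = 0.34, 0.00733). Within slides these ran, in that order, from 0.60 to 0.96, 0.40 to 0.87, 0.12 to 0.84 and 0.30 to 0.70. Without the 2 farthest mice the 4 values were 0.52, 0.45, 0.20 and 0.30. By rho, the relation with mmu-miR-24 was not below 0.05 even unadjusted (raw permutation p 0.0751). The 4 fibroblast miRNAs correlated with mmu-miR-23b at r = 0.72 (rho = 0.72, adjusted permutation p 0.000525), with mmu-miR-23a at 0.66 (rho = 0.68, 0.00205) and with mmu-miR-24 at 0.59 (rho = 0.59, 0.0045). Within slides these ran from 0.23 to 0.68, 0.03 to 0.50 and 0.26 to 0.81, and without the 2 farthest mice they were 0.73, 0.48 and 0.47. The mean of the 3 endothelial miRNAs correlated negatively with mmu-miR-23a (r = −0.71, rho = −0.54, adjusted permutation p 0.00045), mmu-miR-23b (r = −0.68, rho = −0.56, 0.0005) and mmu-miR-24 (r = −0.56, rho = −0.45, 0.0045). Within slides these ran from −0.56 to 0.61, −0.69 to 0.55 and −0.12 to 0.60, so the relation did not hold within slides. This mean leans on miR-126-5p, whose within-group SD was 0.72, against 0.12 for miR-126-3p and 0.20 for miR-221. The 5 leukocyte miRNAs passed with mmu-miR-23a (r = −0.44, rho = −0.43, adjusted permutation p 0.0423, −0.40 to −0.09 within slides) and mmu-miR-24 (r = −0.44, rho = −0.42, 0.0422, −0.69 to 0.48 within slides). The cardiomyocyte list, here without miR-208b, and the red cell list passed with no member (0 of 10 relations), with r from −0.23 to 0.20. The part of these cell types in the correlations between members was not tested.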

How the data were processed

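Arrays were Agilent 1-colour miRNA arrays. The deposited files give processed signal intensity per spot on a linear scale, from Feature Extraction 10.7.3.1 per the file headers. One Printex 90 day 3 file (replicate 3) lists no signal, leaving 29 arrays. A deposited series table gives log2 intensity for 30 samples. It ranked miRNAs as the median pixel signal did (Spearman at least 0.995), its column medians lie between 5.78 and 5.82, how it was scaled and centred is not given in the sources used here, and it served as an alternative.

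Spots were averaged per probe without control and outlying spots. A probe was detected where at least 0.5 of its spots were well above background. Each array was divided by its 75th percentile over the 416 probes that all arrays detected, then floored at 16.5 and logged. Probes detected on at least 4 arrays of a group were kept and averaged per miRNA. limma 3.58.1 (R 4.3.3) fitted 6 groups and 13 contrasts, with a threshold of 0.05, and was tested on simulated data. Correlations used permutation tests in numpy 2.4.6, and the number of arrays limits precision. Relations with passenger strands, miR-128, array brightness and marker lists were added after seeing the data. Named were the members, passenger strands, miRNAs sharing a seed or overlapping it, and the 3 miRNAs most like each member. Members and lists were chosen with earlier results of these data known.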

Additional observations from a re-analysis of the deposited data

Results flagged for a closer look

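In 48 groups of 4 to 6 mice, over the 5 members, the passenger strands of miR-24 and mmu-miR-128, 3 held a mouse far from the others, and chance flags about 1 in 20. mmu-miR-24 in vehicle day 28 replicate 4 lay at 12.26 where the next mouse was at 12.17, a gap of 0.925 of the group's range. mmu-miR-24-2* in Printex 90 day 1 replicate 5 lay at 6.64, above the next at 6.24 (0.676 of the range). mmu-miR-128 in the same mouse lay at 6.73, below the next at 7.03 (0.648 of the range). In the series table, Printex 90 day 3 replicate 3, which has no scanner signal, lay above the highest vehicle mouse of day 3 for 0 of 5 members and below the lowest for 2, mmu-miR-23a (12.1657 against 12.1665) and mmu-miR-27a (11.02 against 11.03).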

How the results depend on the processing

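Each of the 65 member differences was computed again under the alternatives, 2905 values with a test in all. Of these 0 passed the threshold and the smallest adjusted p was 0.287 (limma). The sign turned in 305 of the 2905, all between values that did not pass. The exposure difference farthest from 0 in a tested setting was −0.27, for mmu-miR-27a on day 28 with the 75th percentile over all probes, where the median of all miRNAs was −0.16. Counts of all miRNAs called moved for comparisons with day 28. Vehicle day 28 minus day 1 gave 6, but 1 with the percentile over all probes, 2 with quantile normalization, the series table (30 or 29 samples) or only the groups compared, 3 with normexp, 0 unscaled, and 3 to 7 leaving out 1 mouse. Vehicle day 28 minus day 3 gave 1, but 0 with quantile, no scaling, normexp, the added floor or probes detected on all arrays, 2 with no filter or the brightness covariate, 3 with slide as fixed block or without replicates 4 and 5, 4 with total gene signal or slide as random block, and 1 to 4 leaving out 1. Printex 90 day 28 minus day 1 gave 2, but 1 with all probes, quantile, the series table or only the groups compared, 0 unscaled or with normexp, 6 with total gene signal or slide as a block, and 1 to 4 leaving out 1. Printex 90 day 28 minus day 3 gave 1, but 0 with quantile, no scaling, normexp, the added floor, probes on all arrays or only the groups compared, 2 with no filter, slide as fixed block or without replicates 4 and 5, and 1 to 2 leaving out 1. The cause was not tested. Member pairs passing numbered 7, between 6 and 10 under the planned settings and leaving out 1 mouse, and 4 without Printex 90 day 1 replicates 4 and 5; for mmu-miR-23a with mmu-miR-24 the r was −0.38 within slide 4. The added floor, the 29-sample table, the brightness covariate and the 2 replicates left out were chosen after seeing the data. The planned floor at the 5th percentile of signals not detected lay at −5.43, which has no log, and was not run. Normexp used the median pixel signal. No paired analysis was possible because the labels give no shared replicate numbers.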
